A study of Rattus norvegicus with 12 samples.

Results

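The genes for the proteins of the cytosolic ribosome were followed in the liver of obese ZSF1 rats. Members were taken by symbol: every row named Rpl or Rps with a number (with an a, x or y and a further digit allowed), together with Rplp0, Rplp1, Rplp2 and Rpsa, and without the Rps6k kinases. The rule found 77 genes of the 16478 in the files, 45 for the large subunit and 32 for the small, and all 77 passed the filter on low counts. Liver RNA had been sequenced from 6 female and 6 male adult rats, 1 library per animal. All 12 animals were obese, untreated, 16 weeks old and fed chow, so sex was the only factor that differed by label, and no lean or treated animals enter the comparison. The obese form of this strain carries a defective leptin receptor gene from each parent, and females and males share that background. Males are numbered 1 to 6 and females 7 to 13, no label gives a batch, and any batch that followed the numbers could not be told apart from sex.

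The ribosome translates messenger RNA into protein. Its small subunit reads the message and its large subunit joins the amino acids, and each ribosome holds about equal numbers of its proteins. Messenger RNAs for ribosomal proteins usually start with a C followed by an unbroken run of pyrimidines, the terminal oligopyrimidine tract, through which growth and nutrient signals that act on mTOR and the RNA-binding protein Larp1 control their translation. Hepatocytes make large amounts of plasma protein and keep many ribosomes. Levels of these messages say nothing by themselves of how many ribosomes a cell holds.

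The start sites of the members are shown first because a pyrimidine run is common there, though not found in every member, and the rule did not use it. RefSeq start sites of build GRCr8 were matched by symbol for 62 of 77 members, and 12 are printed: in each subunit the 4 matched members with the largest sex difference and the 2 uncalled members with the smallest. Each line holds 15 bases before and 15 bases after the start, 5′ to 3′, with the longest run of C and T in capitals.
Rplp2 (chr1:205975906-205975935, + strand): CCTTTCgccgccggacgccgccgaggtcgc
Rpl41 (chr7:1563483-1563512, - strand): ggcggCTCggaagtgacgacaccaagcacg
Rpl37a (chr9:81748076-81748105, + strand): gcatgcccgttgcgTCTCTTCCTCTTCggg
Rpl21 (chr12:13386139-13386168, - strand): TTCCTTTCCgccggggcagccatcttccag
Rpl10a (chr20:6390518-6390547, + strand): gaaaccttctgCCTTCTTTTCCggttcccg
Rpl5 (chr14:1995211-1995240, - strand): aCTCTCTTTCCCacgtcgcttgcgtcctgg
Rps12 (chr1:23500060-23500089, + strand): gcacagaagCCCagcagagcgcttaaatac
Rps28 (chr7:15311319-15311348, - strand): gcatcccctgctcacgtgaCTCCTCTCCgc
Rps21 (chr3:187724023-187724052, + strand): gaacgagccaCTTCCTTTCTgtgttctccg
Rps27 (chr2:177964592-177964621, - strand): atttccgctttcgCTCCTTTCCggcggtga
Rps6 (chr5:106420526-106420555, - strand): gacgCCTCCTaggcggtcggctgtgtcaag
Rps4x (chrX:71342907-71342936, - strand): tccagcgcgcgcagCCTCCgaccctaattt

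A run of at least 8 pyrimidines lay in this window in 43 of 62 matched members (69.4%), against 11.4% of the 27457 genes with an entry in the table. The median longest run was 10 bases in members and 4 over the table. Read in the printed direction, which is that of the message, the motif CTTTCC stood in 24.2% of members and 1.3% of all entries. Its reverse complement GGAAAG stood in 1.61% and 1.27%. The motif CTCTT, which can overlap CTTTCC, was found in 37.1% of members and 3.91% of entries, and its reverse complement AAGAG in 0 members and 3.8% of entries. The motif CTTCCG stood in 12.9% and 1.55%, and its reverse complement CGGAAG in 3.23% and 1.82%. Both subunits were alike in this, with a run of 8 or more in 70.3% of the large subunit genes and 68% of the small. An annotated start need not be the base at which transcription begins in liver, so a run that lies upstream of it, as in Rpl21, may or may not be part of the message.

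Reads on the 77 members made up 35852 to 123125 counts per library in females and 66625 to 159635 in males, out of gene totals of 6763879 to 24837602 and 11381428 to 29232871. RefSeq lists 884 entries named as pseudogenes of members, from 0 for Rps4y2 to 36 for Rps2, with a median of 11 per member. The row for reads without a unique alignment holds 0 in all 12 libraries, so such reads were not set apart, and where they were placed is not stated. The level of each member is therefore uncertain, since its copies may hold some of its reads or add theirs. Reads listed as ambiguous between genes made up 0.376% ± 0.0119 of all counts in females and 1.74% ± 0.337 in males, without overlap, and the part of this gap in the sex differences was not tested. One deposited row outside the rule, RGD1359290, is now named as a pseudogene of Rpl17 and held 27.8 ± 2.38 CPM (females) and 34.4 ± 3.61 CPM (males; SD, n = 6 each). CPM are counts per 1000000 gene counts, scaled by TMM factors, which adjust for a few genes that take many counts.

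Transcripts of both subunits were modestly and broadly higher in males. Of 77 members, 67 were higher in males at an adjusted p under 0.05 (edgeR quasi-likelihood test, Benjamini-Hochberg over 9943 genes), 0 were higher in females and 10 were not called. At an unadjusted p under 0.05 the count higher in females was also 0, as it was with DESeq2 and limma-voom. Over all tested genes 22.7% were called higher in males and 20.5% higher in females. The median log2 fold change of the members, females over males, was -0.30 beside -0.01 for all genes, and no member differed 2-fold. In 41 members (53.2%) every male lay above every female, which 12.8% of all tested genes showed. The direction is shared with other genes of short span, the distance from a gene's start to its end. Members are short genes, and 39.8% of short genes outside the family were called higher in males and 8.53% higher in females. With the trend on span removed 22 members remained higher in males and 2 were higher in females, as set out below. All genes in that fit gave 20.4% and 17.6%. How much of the member difference belongs to span was not tested.

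**Figure D1:**
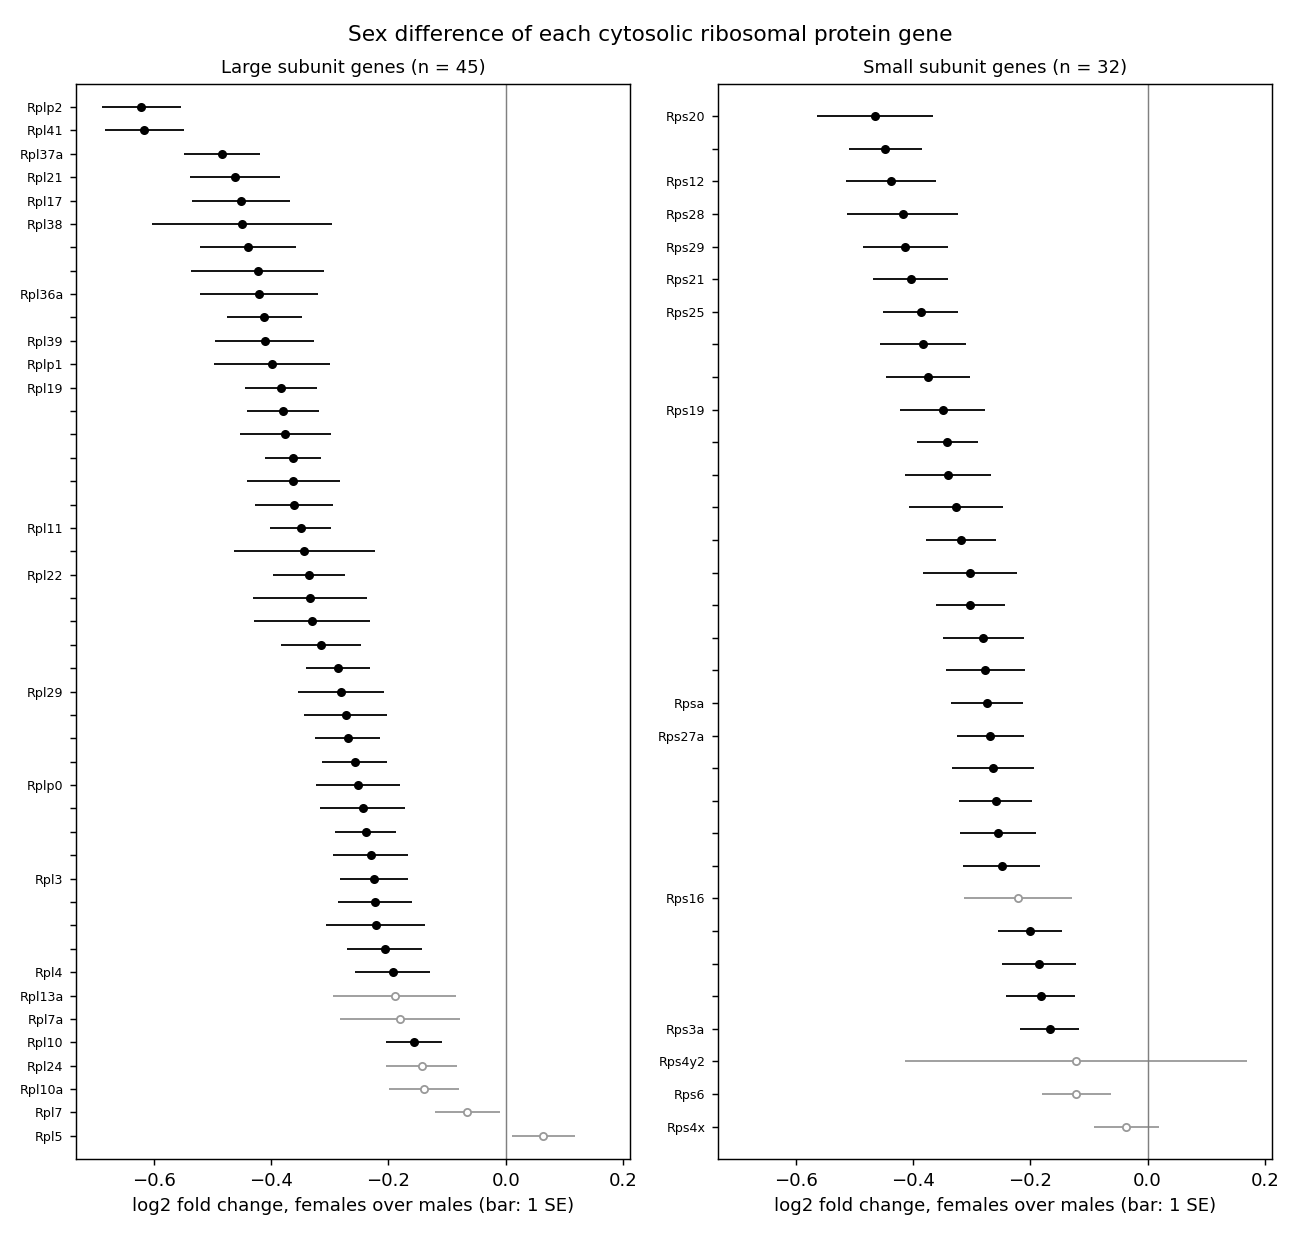
Log2 fold change (x axis, females over males) of each of the 45 large subunit genes (left) and 32 small subunit genes (right), with bars of 1 SE and names for some of the genes; filled points passed an adjusted p of 0.05 and open grey points did not. All members except Rpl5 lie to the left of 0, from -0.62 for Rplp2 to 0.06 for Rpl5.

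Before any removal of the span trend the subunits differed little from each other. With it removed, 17 of 45 large and 5 of 32 small subunit genes stayed higher in males, beside 20.4% of all genes in that fit. This gap between the subunits was not tested. The values that follow are without the removal. Of 45 large subunit genes 39 were higher in males (median log2 fold change -0.33, range -0.62 to 0.06), and of 32 small subunit genes 28 were (median -0.29, range -0.46 to -0.04). Large subunit genes took 0.303% ± 0.0129 of gene counts in females and 0.361% ± 0.0205 in males, and small subunit genes 0.192% ± 0.00854 and 0.225% ± 0.0124 (SD, n = 6 each). For each subunit the lowest male share was above the highest female share (0.336% against 0.323%, and 0.210% against 0.207%). The ratio of large to small subunit counts was 1.58 ± 0.0171 in females and 1.60 ± 0.0147 in males, and the ranges overlapped (1.56 to 1.61 and 1.58 to 1.62).

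The shares also depend on what the other genes take. The albumin gene Alb took 20.6% ± 2.13 of gene counts in females and 16.1% ± 2.31 in males, and the top 20 genes by count 39.7% ± 1.63 and 36.3% ± 0.894. Over a total without these 20, members took 0.820% ± 0.0219 in females and 0.919% ± 0.0394 in males, still without overlap. The gap in the summed share was then -0.16 on the log2 scale, against -0.24 with all genes.

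**Figure D2:**
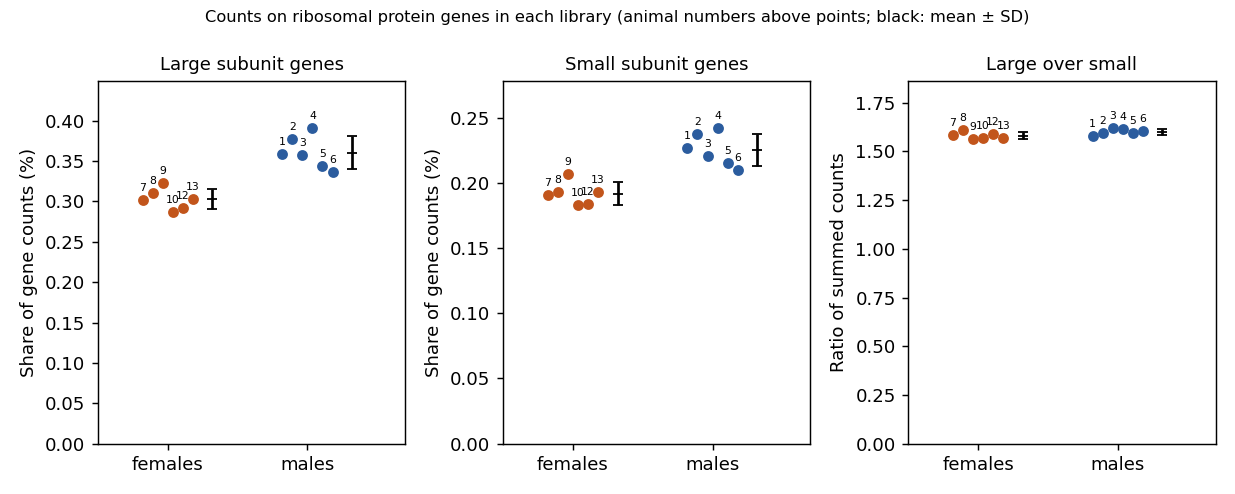
Share of gene counts (%) on large and small subunit genes and the ratio of the summed counts, 1 point per library labelled with the animal number, with mean ± SD in black. The sexes are apart in both shares (large subunit: females at most 0.323%, males at least 0.336%) and overlap in the ratio.

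The acidic stalk of the large subunit, which recruits elongation factors, is built from Rplp0, Rplp1 and Rplp2. Their fitted sex differences were of unequal size, and the inequality was not tested. Rplp2 ran from 11.3 CPM (median 13.3) to 14.2 in females and from 19.0 (median 19.8) to 21.7 in males. Males held 1.54 times the female level (log2 fold change -0.62, SE 0.0675, adjusted p = 5.43e-06), with no overlap. Rplp1 ran from 93.8 (median 104) to 132 CPM in females and from 118 (median 135) to 165 in males, 1.32-fold higher in males (adjusted p = 0.00467), with 3 libraries inside the range of the other sex. Rplp0, the base of the stalk, ran from 248 (median 271) to 283 CPM and from 292 (median 306) to 387, 1.19-fold higher in males (adjusted p = 0.011).

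Rpl41, which encodes the smallest protein of the ribosome, had a gap within 1 SE of that of Rplp2, and the order of the pair turned with the library left out. Its 6 females held 103 to 130 CPM (median 108) and its 6 males 164 to 196 (median 167), a 1.53-fold difference (log2 fold change -0.62, SE 0.0678, adjusted p = 6.22e-06). Male 4 held the 196 CPM and the other males at most 168, and all lay above the females. Rpl37a was 1.40-fold, Rpl21 1.38-fold and Rpl17 1.37-fold higher in males, each without overlap (adjusted p = 4.18e-05, 0.000249 and 0.000598). Rpl38 was 1.37-fold higher on few counts (15 to 70 per library, 2.37 ± 0.374 and 3.27 ± 0.504 CPM, adjusted p = 0.0276), and it missed the threshold when female 7, female 10, male 1, male 2 or male 4 was left out (adjusted p 0.0509 to 0.0771).

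In the small subunit Rps20, a protein of the head of the subunit, ran from 36.9 (median 44.6) to 50.1 CPM in females and from 50.3 (median 60.0) to 72.4 in males, 1.38-fold higher (log2 fold change -0.46, SE 0.0990, adjusted p = 0.00172), with the nearest animals only just apart. Rps12, Rps28, Rps29 and Rps21 were 1.35-fold, 1.34-fold, 1.33-fold and 1.32-fold higher in males. Of these only Rps28 overlapped, with 3 libraries inside the range of the other sex.

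Members with the most counts showed smaller gaps. Rpl3, which lies next to the site where peptide bonds form, averaged 211 ± 10.7 CPM in females against 246 ± 14.3 in males (1.17-fold, adjusted p = 0.00585). Rpl4, which lines the tunnel through which the new protein leaves, stood at 271 ± 9.65 and 309 ± 25.6 (1.14-fold, adjusted p = 0.0242). Rpl4 missed the threshold when female 10, female 13, male 1 or male 2 was left out, or with library totals as the only scaling (adjusted p 0.0505 to 0.0902). Rpsa, also known as a laminin receptor, stood at 186 ± 8.88 and 225 ± 17.1 CPM (1.21-fold, adjusted p = 0.00232), and Rps3a at 172 ± 3.83 and 193 ± 8.65 (1.12-fold, adjusted p = 0.0134; 0.0559 with library totals). Across the 77 members the rank correlation between mean CPM and log2 fold change was 0.342, a description over genes that share libraries and are not independent.

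The 10 uncalled members were Rpl5, Rpl7, Rpl7a, Rpl10a, Rpl13a, Rpl24, Rps4x, Rps4y2, Rps6 and Rps16. Rpl5, which carries the 5S ribosomal RNA into the large subunit, was the sole member with a higher fitted level in females. It ran from 113 (median 124) to 130 CPM in females and from 109 (median 116) to 126 in males (log2 fold change 0.06, SE 0.0542, adjusted p = 0.364). Rpl11, its partner on the 5S RNA, was named here after its values were seen: it held 101 to 113 CPM in females and 128 to 146 in males, 1.27-fold higher in males (adjusted p = 9.27e-05). Rps6, the substrate of the S6 kinases, stood at 188 ± 5.73 and 205 ± 15.6 CPM (adjusted p = 0.11), and Rpl7 at 169 ± 8.34 and 177 ± 9.70 (adjusted p = 0.365). Rpl24 and Rpl10a had adjusted p of 0.0676 and 0.0726, Rps16 of 0.0641, Rpl13a of 0.159 and Rpl7a of 0.168, with log2 fold changes from -0.22 to -0.14. Left-out libraries brought 3 of these past the threshold: Rpl10a and Rps16 without male 3 (adjusted p = 0.0422 and 0.041) and Rpl24 without male 6 (0.0161).

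Rpl10, Rpl36a, Rpl39 and Rps4x are genes of the X chromosome. Rps4x was nearly level between the sexes, with females at 102 to 118 CPM (median 107) and males at 102 to 118 (median 113; log2 fold change -0.04, SE 0.0557, adjusted p = 0.634). Rpl10 was 1.11-fold higher in males (186 ± 6.09 and 207 ± 4.21 CPM, adjusted p = 0.0148; 0.0802 with library totals). Rpl36a and Rpl39 were 1.34-fold and 1.33-fold higher in males (adjusted p = 0.00359 and 0.0013). Rps4y2, a relative of Rps4x, varied most within each sex, from 2.73 to 9.01 CPM in females and from 3.87 to 10.2 in males (adjusted p = 0.765), with female 9 and male 2 highest and female 8 lowest.

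**Figure D3:**
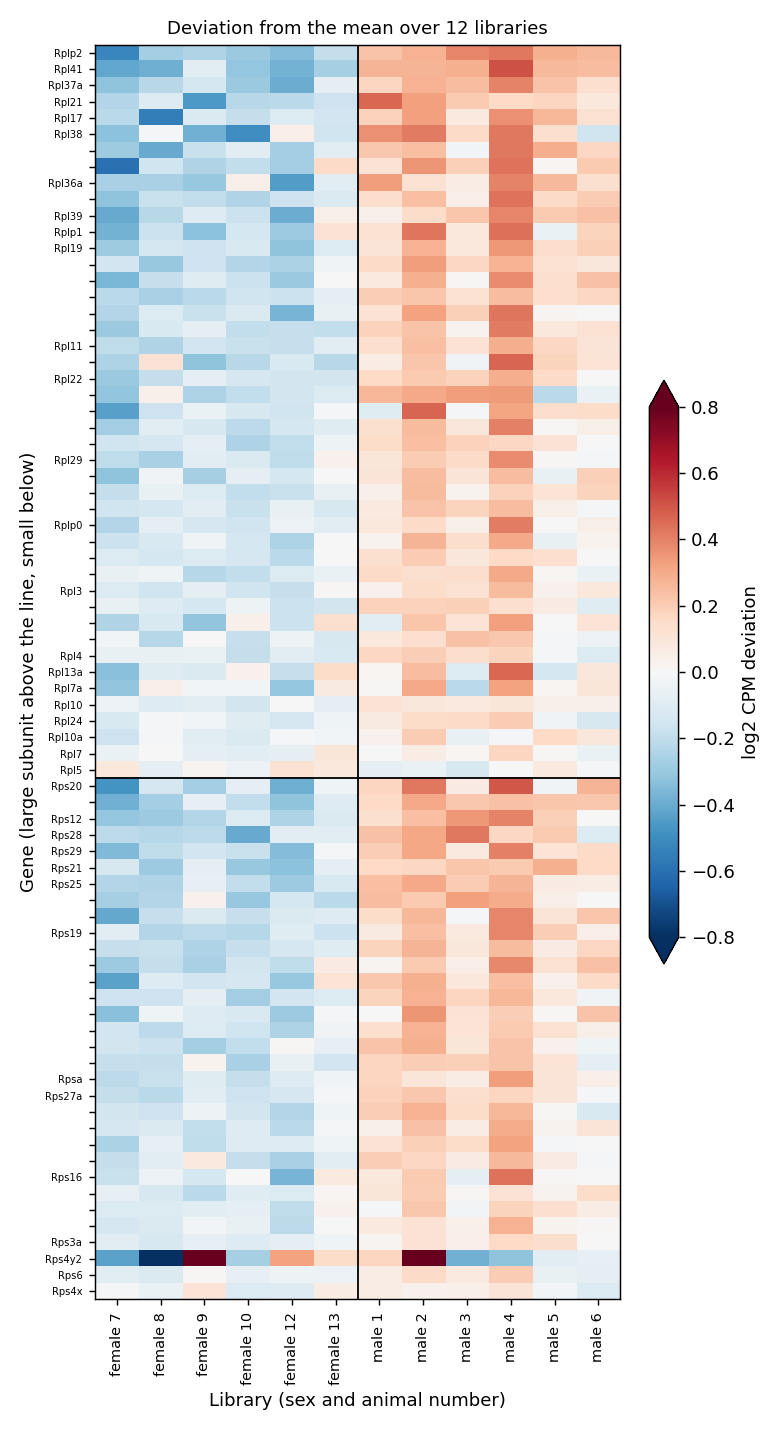
Deviation of log2 CPM (colour) from each gene's mean over the 12 libraries, with libraries as columns and the 77 members as rows ordered by fold change within each subunit. Most rows are below their mean in the 6 females and above it in the 6 males, most strongly in males 2 and 4, and Rps4y2 departs from the pattern.

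Animals of 1 sex also differed from each other, and the members moved together. The median deviation of the members from their means was -0.22 in female 7, -0.14 in female 8, -0.11 in female 9, -0.16 in female 10, -0.18 in female 12 and -0.05 in female 13, on the log2 scale. In males 1 to 6 it was 0.13, 0.24, 0.10, 0.29, 0.08 and 0.06. Male 4 and male 2 were thus the highest, female 7 was the lowest, and the sexes did not overlap, with female 13 and male 6 nearest to each other. Between 52 and 76 members lay above their mean in a male and between 1 and 19 in a female. The first principal component of the 77 members held 74.9% of their variance and had all females on one side and all males on the other. Without male 4 the number of members higher in males was 62, and without male 4 and female 12 together it was also 62.

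Members are short genes, and short genes as a whole leaned the same way. Gene spans were taken from RefSeq build GRCr8 for 9680 of 9943 tested genes (97.4%), a build other than that of the counts. The median span was 3131 bp for members and 22999 bp for all tested genes, and with tested genes divided into 5 equal bins of span, 73 of 77 members fell in the shortest. Among the 1863 genes of that bin outside the family 39.8% were higher in males and 8.53% in females, with a median log2 fold change of -0.20. Among the 1935 of the longest bin 11.1% were higher in males and 38.4% in females, with a median of 0.18. Level moved with direction as well: in 5 equal bins of mean CPM, 33.7% of genes in the most abundant bin and 10.6% in the least abundant were higher in males. Of the 377 genes outside the family that were both in the shortest bin and in the most abundant bin, 57% were higher in males and 6.9% in females, with a median of -0.25.

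**Figure D4:**
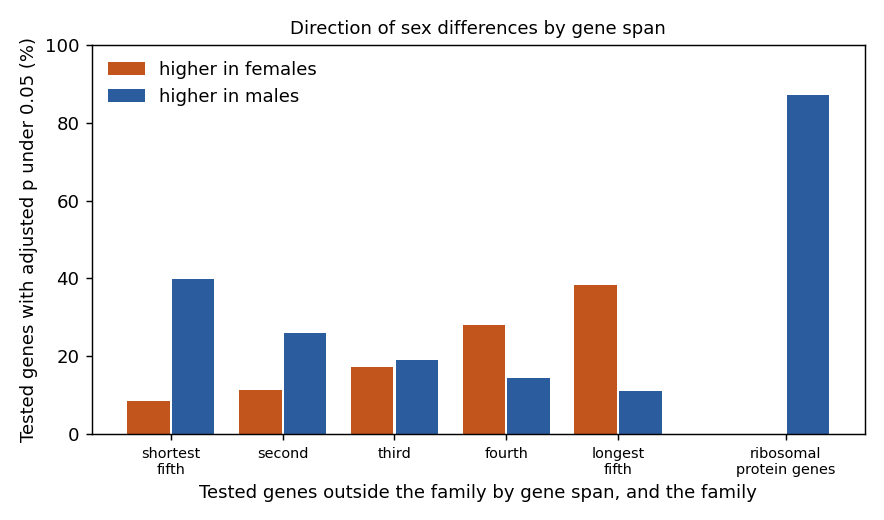
Share of tested genes (y axis, %) called higher in females or in males, with genes outside the family divided into 5 equal bins of gene span, and for the 77 ribosomal protein genes. Calls higher in males fall from 39.8% in the shortest bin to 11.1% in the longest, calls higher in females climb from 8.53% to 38.4%, and the family stands at 87% and 0%.

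The lean of short genes was seen in each animal. The median deviation of genes outside the family in the shortest bin was -0.11 to -0.08 in females and 0.03 to 0.20 in males. It was highest in male 4 and then in male 2, the animals that were also highest for the members. The order did not hold throughout: male 6 stood at 0.11, with the lowest member deviation of the males, 0.06. Among females, female 10 was highest for short genes (-0.08) and female 13 for the members (-0.05). Long genes did the reverse, at 0.06 to 0.12 in females and -0.13 to -0.03 in males. All libraries of a sex share this trend, so it cannot be told apart from sex in this design. Whether it arose in the animals, in the handling of the RNA or in the counting of reads was not tested. Counting settings are not given for either sex, and the share of ambiguous reads differed between the sexes without overlap.

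A fit in which each library's trend on span, estimated over genes outside the family, was taken out left far fewer members called. This alternative was added after the data had been seen. Of 77 members 22 were then higher in males and 2, Rpl5 and Rpl7, higher in females, beside 20.4% and 17.6% of the 9680 genes tested, and the median log2 fold change was -0.10. Of 45 large subunit genes 17 were higher in males (median -0.13), and of 32 small subunit genes 5 were (median -0.10). With the trend on span and level together taken out, 15 were higher in males and 5 higher in females (Rpl5, Rpl7, Rpl10, Rps4x and Rps6), beside 19.9% and 18.3%, and the median was -0.05. With span alone removed, all 22 were among the 67 called without the removal, and 66 members had a lower fitted level in females.

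Which members kept a call was uneven. Rplp2 (log2 fold change -0.41, SE 0.0641, adjusted p = 0.000197) and Rpl41 (-0.33, SE 0.0568, adjusted p = 0.000426) remained higher in males with the span trend removed. So did Rpl37a (-0.25), Rpl21 (-0.28), Rpl17 (-0.25), Rpl19 (-0.26) and Rpl22 (-0.26) in the large subunit and, among others, Rps12 (-0.21), Rps19 (-0.20) and Rps25 (-0.17) in the small. The calls of 45 members were lost. Among them were Rplp0, Rplp1, Rpsa, Rps27a, Rps20, Rps21, Rps28 and Rps29 (adjusted p from 0.0576 to 0.584). Rpl4, Rps3a, Rpl10, Rpl38 and Rpl36a also lost theirs (edgeR, adjusted p = 0.714, 0.963, 0.307, 0.193 and 0.0684). Rpl5, at 0.20 (SE 0.0561, adjusted p = 0.0104), and Rpl7, at 0.14 (adjusted p = 0.0475), were higher in females. Rpl29 was among the 22 with -0.60, which rests on a listed span of 893235 bp, the longest of the family. Without it the count was 21.

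**Figure D5:**
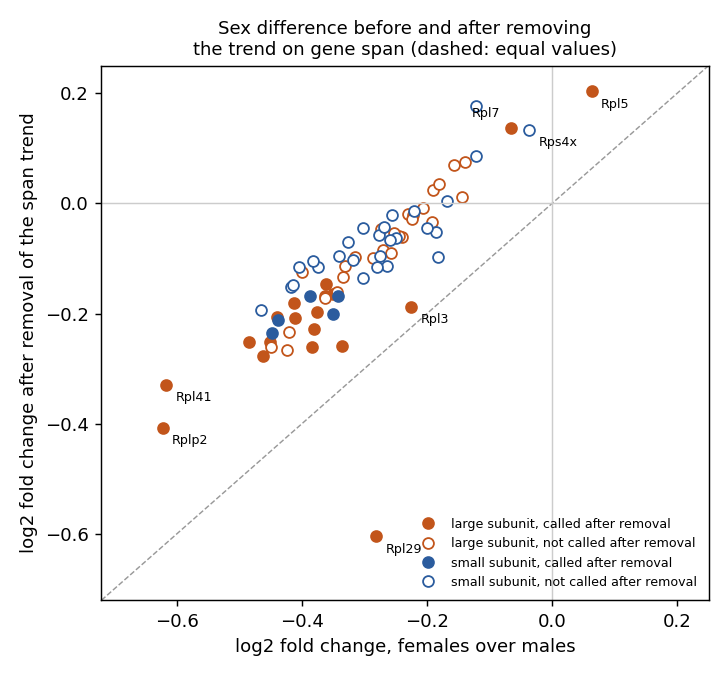
Log2 fold change of each member (females over males) as fitted (x axis) and after each library's trend on gene span was removed (y axis), with filled points for adjusted p under 0.05 after removal. Nearly all points lie above the dashed line of equal values, nearer to 0 or past it; Rplp2 and Rpl41 stay lowest apart from Rpl29, and Rpl5 and Rpl7 are filled above 0.

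Run length in the window around the listed start showed little relation to the size of the sex difference, and no test was made. Runs that reach the edge of the window, as in Rplp2 and Rpl21, may be longer than measured. Members with a run of 8 or more bases were higher in males in 38 of 43 cases (median log2 fold change -0.30). Those with a shorter run were in 15 of 19 (median -0.27), where 22.7% of all tested genes were higher in males. The rank correlation between run length and log2 fold change was 0.0136 over 62 members. Rpl5, uncalled, has an 11-base run in its window, wholly upstream of the listed start, and Rpl41 has no run above 3 bases in its window.

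Genes outside the rule that also encode a ribosomal protein were read beside the members. Fau, which encodes a ribosomal protein fused to a ubiquitin-like protein, was 1.37-fold higher in males (adjusted p = 0.000216), without overlap. Rps27a, a member made as a ubiquitin fusion, was 1.20-fold higher (adjusted p = 0.00154). Of 8 paralogues listed, 3 had a row. Rpl36al, the autosomal relative of Rpl36a, was 1.40-fold higher in males (66.2 ± 3.31 and 92.4 ± 7.64 CPM, adjusted p = 2.46e-05). The calls of Fau and Rpl36al were lost with span and level removed (adjusted p = 0.107 and 0.0524). Rpl22l1 stood at 11.1 ± 1.04 and 12.9 ± 1.60 CPM (adjusted p = 0.0898; 0.0179 without male 6), and Rpl3l did not pass the filter on low counts.

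The balance between paralogue and member did not pass a test. The log2 ratio of Rpl22l1 to Rpl22 was -0.95 ± 0.191 in females and -1.07 ± 0.126 in males, a difference of 0.12 (SD, n = 6 each; exact 2-sided permutation test over all assignments of the animals, p = 0.212, adjusted over 2 pairs 0.424). That of Rpl36al to Rpl36a was 3.30 ± 0.205 and 3.34 ± 0.116, a difference of -0.04 (exact permutation p = 0.667, adjusted 0.667). The spread within a sex leaves differences of this size undetectable, so neither value shows that the balance is equal.

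The mitochondrial ribosome, a separate particle whose proteins are made from nuclear genes, showed a similar lean. Of 67 genes for its proteins 50 were called higher in males (74.6%), with a median log2 fold change of -0.31. None was called the other way by edgeR, DESeq2 or limma-voom or at an unadjusted p under 0.05. All tested genes gave 22.7% higher in males and 20.5% in females. Mrpl53, Mrps34 and Mrpl34 were 1.54-fold, 1.54-fold and 1.52-fold higher in males. With the span trend removed 44 of 67 were called higher in males and 1 higher in females (median -0.21). The cytosolic family then had 22 of 77 and 2, and all genes gave 20.4% and 17.6%. With span and level removed the mitochondrial counts were 40 and 1 (median -0.20), beside 15 and 5 in the cytosolic family. All genes then gave 19.9% and 18.3%. This difference between the families was not tested.

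Other parts of the translation machinery were counted in the same fit, in which males had 22.7% of all tested genes higher and females 20.5%. These lists were not matched to the members for span, and their difference from the members was not tested. Of 8 elongation factor genes males had 2 higher and females 1 (median -0.07): Eif5a was 1.29-fold and Eef1b2 1.16-fold higher in males, and Eef2k, the kinase that inhibits elongation factor 2, was 1.61-fold higher in females. Of 33 initiation factor genes males had 8 higher (24.2%) and females 3 (9.09%; median -0.05). Eif2s3x was 1.65-fold and Eif3a 1.41-fold higher in females, and Eif2b2 1.30-fold higher in males. Of 10 other transcripts with a terminal oligopyrimidine tract males had 2 higher and females 1 (median -0.10), namely Gas5, which is non-coding, Nap1l1 and Hnrnpa1. Each of these 3 calls was close to the threshold (adjusted p = 0.035, 0.0424 and 0.0465) and was lost in several alternatives.

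Genes that make and regulate ribosomes were mostly uncalled. Of 70 biogenesis factors males had 16 higher (22.9%, where all tested genes gave 22.7%) and females 4 (5.71%, where all gave 20.5%; median -0.01). Nhp2, of the complex that modifies ribosomal RNA, and Rrs1 were 1.47-fold and 1.43-fold higher in males, and the nucleolar GTPase gene Gnl3l was 1.67-fold higher in females. Of 17 RNA polymerase I genes, counting subunits it shares with polymerase II, males had 2 higher (11.8%) and females 1 (5.88%; median -0.02). Polr2l was 1.54-fold and Polr2e 1.26-fold higher in males. The calls of Rrs1 and Polr2e were lost with the span trend removed (edgeR, adjusted p = 0.058 and 0.093). Of 16 genes of mTOR signalling 3 went each way (18.8%; median 0.04). The translation repressor gene Eif4ebp1 was 1.61-fold higher in males (17.0 ± 1.10 and 27.3 ± 4.87 CPM, adjusted p = 8.71e-05) and its relative Eif4ebp2 1.61-fold higher in females (67.1 ± 10.3 and 41.8 ± 6.69 CPM, adjusted p = 0.000294). Tsc1, which restrains mTOR, was 1.51-fold higher in females (adjusted p = 0.0012).

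Markers of liver cells and of other cells were measured beside the members. Fewer cells of a type and less RNA per cell cannot be told apart in whole liver. The counts stand beside all tested genes, of which edgeR called 22.7% higher in males and 20.5% higher in females. Among 10 hepatocyte markers 3 were called higher in males and 2 the other way, with summed levels of 246475 to 325906 CPM in females and 212228 to 271111 in males, and no marker was at 0. Erythroid markers gave 2 of 6 higher in males by edgeR, the globin genes Hbb and Hba-a2, and 0 higher in females. At an unadjusted p under 0.05 these counts were 3 and 1. The erythroid regulator Gata1 held no more than 3 counts in any library. Erythroid sums ran from 393 to 852 CPM in females and from 666 to 1396 in males. Young red cells carry ribosomal RNA and messages, and the part of these cells in the result was not tested. Male 2 had the highest erythroid sum (1396 CPM) and male 4 the next (877 CPM), with median member deviations of 0.24 and 0.29. Female 10 had a sum of 852 CPM, above 4 males, with members at -0.16. Male 6 had 802 CPM with the lowest member deviation of the males, 0.06.

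Lymphocyte markers gave 0 of 7 called in either direction by edgeR, 1 at an unadjusted p under 0.05, and 1 by DESeq2 and 1 by limma-voom in opposite directions (25.3 to 32.2 CPM in females and 16.5 to 74.97 in males). Neutrophil markers gave 1 of 2 higher in males by edgeR and 0 by DESeq2 or limma-voom (3.75 to 7.998 and 4.34 to 298, the last in male 4). Among 13 macrophage markers 1 was called higher in males, 3 the other way (330 to 465 and 216 to 652), with Lyz2 at 0, and endothelial markers 0 of 6 and 5 (91.0 to 115 and 33.3 to 92.8). Stellate cell and fibroblast markers gave 1 of 9 and 3 (194 to 280 and 151 to 278), bile duct markers 0 of 3 in either direction, by each tool and unadjusted (5.42 to 10.52 and 5.74 to 13.6), and proliferation markers 1 of 11 each way (34.2 to 47.8 and 33.4 to 64.99). The part of these lists in the result was not tested.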

How the data were processed

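Per the labels' protocols, libraries were made from 1 µg of total liver RNA with an Illumina TruSeq kit. The deposited values are whole-number read counts per gene symbol. The submitters' processing notes name Bowtie2 2.0.2, DESeq and build rn4; the counter, annotation, strand setting and placement of reads with several alignments are not given in the sources used here. The 5 closing rows that name no gene held 27.1% to 31.7% of counts and were left out. After filterByExpr (minimum count 10, total 15) and TMM scaling, the sexes were compared by the robust quasi-likelihood F test of edgeR 4.0.16 under R 4.3.3, with Benjamini-Hochberg adjustment over all tested genes. The SE is the log2 fold change over the square root of F. Alternatives used limma 3.58.1, DESeq2 1.42.0, other scalings and filters, and left-out libraries. Log2 ratios and deviations used a prior count of 2. In the closest of 30 within-sex pairs of libraries, counts differed by 6.34 chi-square units per degree of freedom. No label gives a litter, cage or day, so p-values measure the spread between these animals. Protein sequences were not used here, so the planned protein lengths were not computed and levels are not compared between genes per length.

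Members and lists were chosen with earlier results of these data known. Genes named were, in each subunit, the 6 with the largest difference and the 3 with the most counts, every uncalled member, members by role or on the X chromosome, all paralogues and fusions, and up to 3 called genes of each other translation list; others are said to be named after their values were seen or are given for a call kept or lost with the span trend removed. Some genes under this rule are not reported here.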

Additional observations from a re-analysis of the deposited data

Results flagged for a closer look

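Of 104 sets of 6 animals examined, 12 held an animal far from the other 5 of its sex, where chance gives about 5%. Male 4 was such an animal for Rpl41 (196 CPM, the other males 164 to 168) and Rplp0 (387 CPM, the others 292 to 325). It was also apart for the Alb share (11.6% of gene counts, the others 16.3% to 17.8%) and for the summed markers of hepatocytes (212000 CPM), lymphocytes (75 CPM, the others 16.5 to 25.7), neutrophils (298 CPM, the others 4.34 to 8.30), macrophages (652 CPM) and bile ducts (13.6 CPM). Male 2 was apart for Rps4y2 (10.2 CPM, the others 3.87 to 5.77) and for the erythroid sum (1400 CPM, the others 666 to 877), and male 1 for the proliferation sum (65 CPM, the others 33.4 to 39.1). Female 8 was apart for Rpl17, at 10.9 CPM where the other females held 13.8 to 14.9.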

How the results depend on the processing

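No paired analysis was possible because females and males share no animal number. Counts and medians of members were within 1.5 times or 1 SD of those reported under other scalings, filters and tools. With each library left out in turn 62 to 68 members were higher in males (35 to 39 large, 26 to 29 small) and 0 in females, and the medians ran from -0.32 to -0.27, -0.34 to -0.27 and -0.32 to -0.27 for all, large and small subunit genes. By DESeq2 66 and by limma-voom 67 members were higher in males, and with library totals 61. Removing the span trend moved the counts to 22 (17 large, 5 small) higher in males and 2 (both large) in females, with medians of -0.10, -0.13 and -0.10. Removing span and level moved them to 15 (12 and 3) and 5 (3 and 2), with medians of -0.0485, -0.0819 and -0.0426. Without the 20 most abundant genes the summed share differed by -0.16, -0.17 and -0.15 on the log2 scale for all, large and small.

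Single fold changes changed sign as follows. With the span trend removed they were 0.0854 for Rps6, 0.00372 for Rps3a, 0.0755 for Rpl10a, 0.0248 for Rpl13a, 0.0113 for Rpl24, 0.14 for Rpl7, 0.0357 for Rpl7a, 0.13 for Rps4x, 0.18 for Rps4y2, 0.0707 for Rpl10, 0.0291 for Rpl22l1 and 0.00432 for Eef1b2. With span and level removed they were 0.0353 for Rplp0, 0.0445 for Rpl4, 0.17 for Rps6, 0.0744 for Rps3a, 0.11 for Rpl10a, 0.0686 for Rpl13a, 0.0447 for Rpl24, 0.22 for Rpl7, 0.0503 for Rpl7a, 0.0410 for Rps16, 0.19 for Rps4x, 0.12 for Rps4y2, 0.16 for Rpl10, 0.0212 for Rpl22l1 and 0.0692 for Eef1b2. Rps4y2 was 0.0179 without female 8 and 0.15 without male 2, and -0.29 without female 9, and Rps4x 0.00911 without male 4 and female 12. The balance of Rpl36al to Rpl36a ran from -0.0917 to 0.0218 with 1 library left out, the latter without female 10. The cause of these changes was not tested. Depth limits Rpl38, Rpl35a and Rps4y2 most, with as few as 15, 23 and 38 counts in a library.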
